A study of Saccharomyces cerevisiae with 32 samples.

Results

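The 7 genes described here encode the siderophore uptake system of *Saccharomyces cerevisiae*: the transporters *ARN1* (YHL040C), *ARN2* (YHL047C), *SIT1* (YEL065W) and *ENB1* (YOL158C), and the cell wall mannoproteins *FIT1* (YDR534C), *FIT2* (YOR382W) and *FIT3* (YOR383C). They are 7 of the 7036 genes of the count table and were picked by gene ID, with the set chosen from results of these same data, so their strain differences are descriptions of a known pattern and not independent evidence of it. The study profiled mRNA (RNA-Seq) and ribosome-protected mRNA fragments (Ribo-Seq) in 3 deletion strains, *tma46Δ*, *eif2aΔ* (lacking YGR054W, the gene of initiation factor eIF2A) and *stm1Δ*, and in the parent BY4742 (*wt*), with 4 cultures per strain, 16 libraries per assay and 32 in all. Tma46 is a partner of a ribosome-binding GTPase, and Stm1 is a ribosome-bound factor that protects idle ribosomes.

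All strains were haploid and carried the BY4742 markers *MATα his3Δ1 leu2Δ0 lys2Δ0 ura3Δ0*, the deletion strains coming from a deletion collection, so each deletion stood for a single collection strain. Cells were harvested in exponential growth after a short cycloheximide treatment, and 1 lysate of each culture was divided between both assays. The labels name either YPD or SD medium without saying which culture had which, whereas the series design names YPD only, and the part of the medium in any difference was not tested. The labels also place the cultures in 7 batches: replicates 1 to 4 of *tma46Δ* were of batches 1, 2, 3 and 5, those of *eif2aΔ* of batches 3, 4, 5 and 6, those of *stm1Δ* of batches 6, 7, 7 and 7, and those of *wt* of batches 1, 2, 3 and 4. Nothing else says that replicates were grown independently, so every p-value measures only the spread between these cultures.

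A siderophore is a small molecule that a microbe releases to bind ferric iron. Budding yeast makes none of its own but takes up siderophores made by other microbes through the Arn family of transporters, while the Fit mannoproteins hold siderophore-bound iron in the cell wall close to the membrane. Both groups, like the reductases and the oxidase-permease pair of the parallel reductive pathway, are transcribed under the activators Aft1 and Aft2, which bind DNA when the cell senses too little iron in its mitochondrial iron-sulfur cluster pathway. In bulk libraries such as these, a change in the share of cells that express a gene and a change in the RNA per cell cannot be told apart.

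The DNA before the 7 genes is shown because the Aft1 and Aft2 recognition sequence TGCACCC, with its core GCACCC, stood before every one of them. All positions refer to the R64 assembly with RefSeq annotation, sequences run 5′ to 3′ on the gene's own strand, and capitals mark the core GCACCC or, where it lay on the opposite strand, its reverse complement GGGTGC. For *ENB1*, *FIT1*, *FIT2* and *FIT3* the 250 bases before the start codon and the first 50 coding bases are given, at chrXV:21262-21561 (minus strand), chrIV:1504851-1505150 (minus), chrXV:1059281-1059580 (plus) and chrXV:1061006-1061305 (minus).
ENB1: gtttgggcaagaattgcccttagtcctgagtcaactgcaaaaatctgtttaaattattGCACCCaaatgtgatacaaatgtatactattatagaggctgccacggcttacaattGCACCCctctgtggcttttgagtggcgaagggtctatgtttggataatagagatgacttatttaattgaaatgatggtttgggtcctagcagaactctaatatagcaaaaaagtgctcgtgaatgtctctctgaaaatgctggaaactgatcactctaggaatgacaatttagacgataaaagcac
FIT1: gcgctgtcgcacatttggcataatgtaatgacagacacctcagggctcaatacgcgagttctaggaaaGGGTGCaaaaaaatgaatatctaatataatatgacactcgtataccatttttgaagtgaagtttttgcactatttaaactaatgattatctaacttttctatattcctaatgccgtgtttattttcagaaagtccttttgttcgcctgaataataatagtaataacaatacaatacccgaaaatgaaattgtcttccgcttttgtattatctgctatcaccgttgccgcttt
FIT2: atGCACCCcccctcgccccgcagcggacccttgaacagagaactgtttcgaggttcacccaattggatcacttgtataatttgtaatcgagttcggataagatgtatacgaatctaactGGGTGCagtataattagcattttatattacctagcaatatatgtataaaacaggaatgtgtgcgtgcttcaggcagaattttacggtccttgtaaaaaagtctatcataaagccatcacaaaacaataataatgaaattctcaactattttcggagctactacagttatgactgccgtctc
FIT3: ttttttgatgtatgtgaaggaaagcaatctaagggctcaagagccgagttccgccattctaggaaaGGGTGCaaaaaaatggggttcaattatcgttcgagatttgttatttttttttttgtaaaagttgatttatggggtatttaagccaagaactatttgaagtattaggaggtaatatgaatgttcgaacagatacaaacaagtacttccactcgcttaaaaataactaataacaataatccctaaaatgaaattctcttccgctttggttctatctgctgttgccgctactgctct
For *SIT1*, *ARN1* and *ARN2*, which had a single match each, 30 bases around it are given, at chrV:27457-27486 (plus strand), chrVIII:21213-21242 (minus) and chrVIII:10643-10672 (minus).
SIT1: gaacacatttgaGGGTGCaatctggttcgt
ARN1: atttatcaaaatGCACCCataaaagcaggt
ARN2: caatcagaaaatGGGTGCagttcttagttc

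Within the 300-base windows, TGCACCC on either strand was found 7 times before 5 of the 7 genes, against 78 of 6001 protein-coding genes (1.30%). In *ARN1* and *ARN2* the match lay farther out, at positions -260 and -447 relative to the start codon. A window of 500 bases before the start codon, chosen after the shorter window had been examined, held 13 matches before all 7 genes, against 140 of 6000 genes (2.33%), and the core GCACCC alone, which lies inside the longer motif, was found 16 times before the 7 genes against 457 of 6000 genes (7.62%). *FIT2* had the most, with 4 full matches and 1 of the core only. *FIT1* and *FIT3* were alike in this respect, with full matches at positions -284 and -182 in *FIT1* and -285 and -184 in *FIT3*, and a core-only match between them in both. The inner match of both lay in an identical run of 25 bases, whereas the longest run shared by any other pair of the 7 in the 250 bases before the start codon was 10 bases. A match describes these letters only and does not show that a factor bound there.

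**Figure D1:**
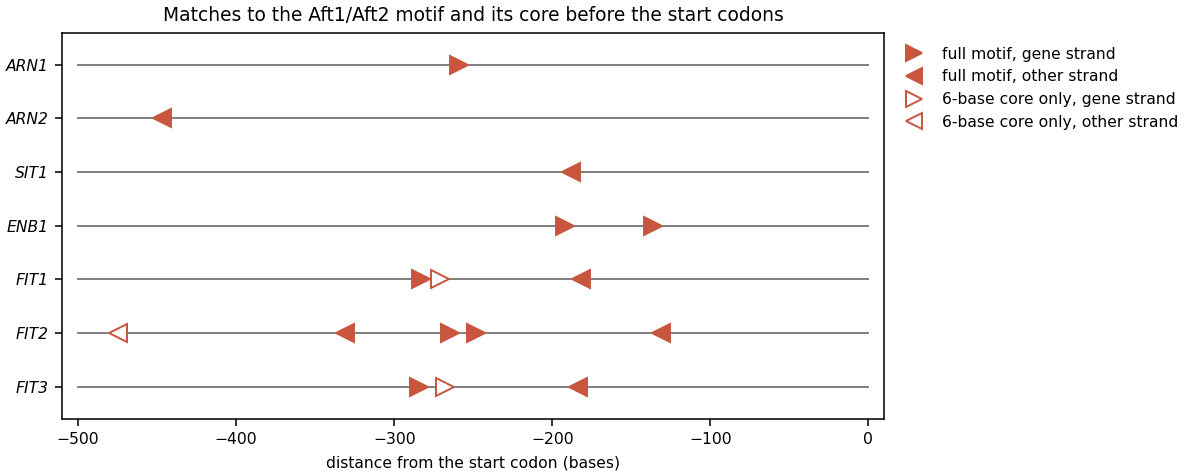
Matches to TGCACCC (filled triangles) and to its core GCACCC alone (open triangles) in the 500 bases before the start codon of each of the 7 genes, the horizontal axis giving the distance from the start codon in bases and the triangle's direction the strand. All 7 genes had a full match, with 4 before *FIT2*, and the matches of *FIT1* and *FIT3* stood at nearly the same distances.

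The 7 genes lay on 4 chromosomes and all of them near an end. *ARN2* (chrVIII:8351-10213) and *ARN1* (chrVIII:19088-20971) lay 8.35 and 19.1 kb from the left end of chromosome VIII, *ENB1* (chrXV:19491-21311) 19.5 kb from the left end of chromosome XV and *SIT1* (chrV:27657-29543) 27.7 kb from the left end of chromosome V. *FIT1* (chrIV:1503314-1504900) lay 27.0 kb from the right end of chromosome IV. *FIT2* (chrXV:1059531-1059992) and *FIT3* (chrXV:1060441-1061055) faced each other at the right end of chromosome XV with 448 bp between them, and *FRE5*, which encodes a putative ferric reductase, followed 508 bp beyond *FIT3*. Every one of the 7 was within 31.3 kb of a chromosome end, against 409 of 6002 protein-coding genes (6.81%). This limit was set by *FIT2*, the farthest of the 7, after the positions had been seen.

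The proteins were compared by the share of identical residues among those aligned. Arn1 and Arn2 were 54.2% identical, Arn1 and Sit1 47.2% and Arn2 and Sit1 41.1%. Enb1 was the most distant transporter, at 30.7 to 32.3% identity to the other 3 over 594 to 597 aligned residues. The 32.7% between Enb1 and Fit2 came from only 153 aligned residues and cannot be set against these values. Fit1 and Fit3 were 74.5% identical over 204 residues, and Fit2 was 50.3% identical to Fit1 and 45.9% to Fit3. Because the deposited tables count reads that map to 1 place, repeats matter to *FIT1*: 297 of its 1560 windows of 28 bases (19.0%), about the length of a ribosome footprint, occurred more than once, all of them within *FIT1* itself, against 22 of 588 (3.74%) in *FIT3* and none in the other 5 genes. Reads that lay wholly in such a window were not counted, in any strain, so *FIT1* may be underestimated relative to the other genes.

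The FIT mRNAs *FIT2* and *FIT3* were among the most abundant of the cell. Levels are given as CPM, gene counts scaled to a common library total, and, between genes, as CPM per kb of coding length. Averaged over the 16 RNA-Seq libraries, *FIT3* stood at 7848 CPM per kb, the 12th highest of 4617 genes past the low-count filter that have a coding length, and *FIT2* at 6644, the 16th. In Ribo-Seq *FIT2* stood at 8018 CPM per kb (13th) and *FIT3* at 5505 (30th). The transporters and *FIT1* were roughly an order of magnitude lower but still among the more abundant genes: in RNA-Seq, *ENB1* ranked 263rd, *ARN2* 301st, *SIT1* 352nd, *FIT1* 399th and *ARN1* 629th.

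In *wt* alone the order per kb was, in RNA-Seq, *FIT2* at 5622 ± 1245 CPM per kb (SD, n = 4 here and below), *FIT3* at 5427 ± 1868, *ENB1* at 543 ± 80.8, *ARN2* at 407 ± 168, *SIT1* at 391 ± 66.3, *ARN1* at 179 ± 31.2 and *FIT1* at 174 ± 117. *FIT2* and *FIT3*, *ENB1* and *ARN2*, *ARN2* and *SIT1*, and *ARN1* and *FIT1* differed by less than the larger SD of the pair. In Ribo-Seq the order in *wt* was *FIT2* at 6281 ± 1185 CPM per kb, *FIT3* at 3832 ± 1152, *SIT1* at 362 ± 70.8, *ENB1* at 242 ± 40.6, *ARN2* at 201 ± 101, *FIT1* at 200.5 ± 131 and *ARN1* at 113 ± 31.1. There, *SIT1* stood above *ENB1* by more than either SD, the reverse of their order in RNA-Seq. *ENB1*, *ARN2* and *FIT1* differed by less than the larger SD of each pair, as did *ARN1* from *ARN2* and from *FIT1*. These SDs are between cultures, whereas the genes share libraries. Culture by culture, *ARN2* footprints stood above *ARN1* in replicates 1 to 4 of *wt*, at 350, 145, 133 and 176 against 157, 101, 85.0 and 108 CPM per kb. The other pairs of this group changed order between *wt* cultures.

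**Figure D2:**
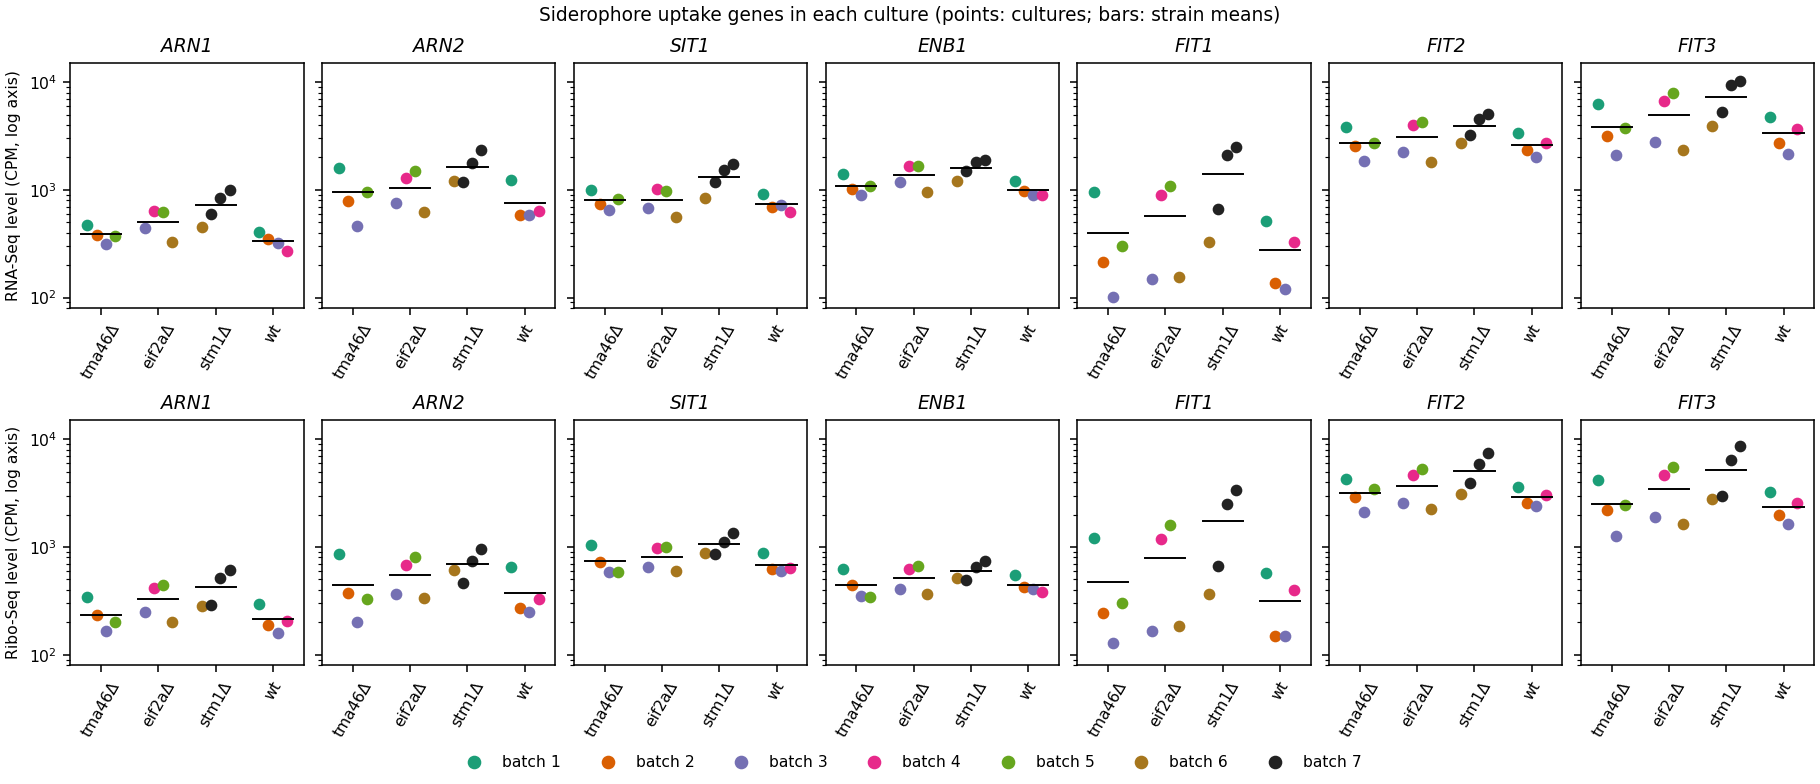
Level of each gene in each culture, in CPM on a log axis, RNA-Seq above and Ribo-Seq below, with points coloured by batch and bars at strain means. Cultures of 1 strain spread widely, most of all for *FIT1*, and the same cultures are high for all 7 genes in both assays.

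The most variable gene was *FIT1*. Its RNA-Seq level was 957, 212, 102 and 303 CPM in replicates 1 to 4 of *tma46Δ*, 148, 887, 1097 and 155 in *eif2aΔ*, 330.2, 658, 2097 and 2502 in *stm1Δ*, and 514, 138, 119 and 331 in *wt*. The 16 cultures spanned 24.6-fold, the *stm1Δ* replicates 3 and 4 standing above all others, and every strain overlapped every other. Without those 2 cultures, a choice made after their values were seen, the span was 10.8-fold. In Ribo-Seq *FIT1* stood at 1210.2, 243, 129 and 300.1 CPM in *tma46Δ*, 167, 1192, 1593 and 185 in *eif2aΔ*, 367, 669, 2505 and 3377 in *stm1Δ*, and 575, 149, 148 and 400.0 in *wt*. The footprints ranked the cultures almost as the mRNA did and spanned 26.3-fold, or 12.4-fold without the same 2 cultures. The SD of log2 levels over the 16 cultures was 1.43 in RNA-Seq, the 7th largest of 4625 genes, whose median was 0.157, and 1.52 in Ribo-Seq, the 9th largest, against a median of 0.183.

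*FIT3* followed the same cultures with a smaller span. Its RNA-Seq level was 6297, 3162, 2105 and 3769 CPM in *tma46Δ*, 2809, 6623, 7906 and 2323 in *eif2aΔ*, 3884, 5323, 9492 and 10184 in *stm1Δ*, and 4769, 2707, 2165 and 3709 in *wt*. In Ribo-Seq it was 4176, 2219, 1253 and 2427 CPM in *tma46Δ*, 1899, 4637, 5579 and 1630.4 in *eif2aΔ*, 2799, 2987, 6447 and 8693 in *stm1Δ*, and 3259, 1975, 1644 and 2548 in *wt*. Replicate 4 of *stm1Δ* was highest and replicate 3 of *tma46Δ* lowest in both assays, 4.84-fold apart in mRNA and 6.94-fold in footprints, and the strains overlapped.

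*FIT2*, the neighbour of *FIT3*, had the narrower spread of the pair. Its RNA-Seq level was 3801, 2546, 1869.7 and 2712 CPM in *tma46Δ*, 2266, 3964, 4259.9 and 1810.0 in *eif2aΔ*, 2694, 3253, 4510.2 and 5041 in *stm1Δ*, and 3350.2, 2329, 2012 and 2698 in *wt*. In Ribo-Seq it was 4282, 2881, 2091 and 3439 CPM in *tma46Δ*, 2541, 4613, 5263 and 2234 in *eif2aΔ*, 3098, 3918, 5898 and 7402 in *stm1Δ*, and 3618, 2583, 2382 and 3024 in *wt*. The strains overlapped, and the highest culture, again *stm1Δ* replicate 4, stood 2.78-fold above the lowest in mRNA and 3.54-fold in footprints. Per kb, *FIT3* was 0.808 to 1.58 times *FIT2* in RNA-Seq but 0.450 to 0.882 times *FIT2* in Ribo-Seq, so *FIT2* had the more footprints in every culture while the mRNAs changed places.

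Among the transporters, *ARN2*, which takes up triacetylfusarinine C, varied most. Its RNA-Seq level was 1593, 789.6, 463 and 954 CPM in *tma46Δ*, 762, 1288, 1499.9 and 628 in *eif2aΔ*, 1213, 1189, 1794 and 2347 in *stm1Δ*, and 1226, 586, 582 and 641 in *wt*. In Ribo-Seq it was 859.8, 372, 201 and 332 CPM in *tma46Δ*, 368, 678, 801 and 332 in *eif2aΔ*, 613, 460.3, 745 and 961 in *stm1Δ*, and 652, 270.5, 248 and 328 in *wt*. Apart from replicate 1, the *wt* cultures lay below all *stm1Δ* cultures in both assays, but with it the strains overlapped, and the whole span was 5.07-fold in mRNA and 4.79-fold in footprints.

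*ARN1*, whose substrates include ferrichromes, was the lowest transporter. Its RNA-Seq level was 475, 385, 314 and 375 CPM in *tma46Δ*, 442, 632, 619 and 325 in *eif2aΔ*, 448, 603, 847 and 999.8 in *stm1Δ*, and 409.7, 347, 321 and 268 in *wt*. In Ribo-Seq it was 340.2, 234, 167 and 202 CPM in *tma46Δ*, 248, 417, 447 and 202 in *eif2aΔ*, 285, 286, 512 and 612 in *stm1Δ*, and 296, 189, 160.1 and 204 in *wt*. In unscaled CPM all 4 *stm1Δ* cultures lay above all 4 *wt* cultures in mRNA. After TMM scaling the strains overlapped, with 422 CPM in *stm1Δ* replicate 1 and 430.5 CPM in *wt* replicate 1, and in footprints they overlapped on either scale.

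*SIT1* and *ENB1*, which transport ferrioxamine B and enterobactin, had the smallest spans among the transporters. *SIT1* stood at 1000.1, 732, 654 and 822 CPM in RNA-Seq of *tma46Δ*, 675, 1015, 969 and 564 in *eif2aΔ*, 834, 1194, 1518 and 1729 in *stm1Δ*, and 918, 688, 719 and 629 in *wt*. In Ribo-Seq it stood at 1047, 732, 581 and 587 CPM in *tma46Δ*, 646, 978, 1009.5 and 600.4 in *eif2aΔ*, 886, 855, 1122 and 1353 in *stm1Δ*, and 883, 622, 597 and 634 in *wt*. The strains overlapped in both assays, with spans of 3.06-fold in mRNA and 2.33-fold in footprints.

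*ENB1* had the smallest span of the 7, 2.12-fold in mRNA and 2.16-fold in footprints. Its RNA-Seq level was 1396, 1019, 895 and 1079 CPM in *tma46Δ*, 1183, 1669, 1670.4 and 959 in *eif2aΔ*, 1203, 1506, 1796 and 1888 in *stm1Δ*, and 1203, 968, 891 and 895 in *wt*. In Ribo-Seq it was 625, 446, 349.8 and 341 CPM in *tma46Δ*, 405, 618, 664 and 368 in *eif2aΔ*, 517, 489, 648 and 737 in *stm1Δ*, and 548, 426, 403 and 384 in *wt*. The lowest *stm1Δ* culture and the highest *wt* culture were both at 1203 CPM in mRNA, and the strains overlapped in footprints. Small as its span was, the SD of its log2 mRNA level over cultures ranked 223rd of 4625 genes, so even this gene varied more than most genes.

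The 7 genes varied together from culture to culture. Over the 16 cultures, the Pearson correlation of log2(CPM + 1) between members of a pair, after TMM scaling, ranged over the 21 pairs from 0.83 (*ARN1* and *FIT2*) to 0.99 (*FIT1* and *FIT3*) for mRNA, with a median of 0.90, and from 0.87 (*ARN2* and *FIT2*) to 0.99 (*FIT2* and *FIT3*) for footprints, with a median of 0.94. These values describe points that share libraries, strains and batches. With each batch centred on its own mean, which leaves only differences between cultures of 1 batch, the medians were 0.89 and 0.95 and the lowest pairs 0.76 (*SIT1* and *ENB1*) and 0.92 (*ARN1* and *ENB1*). Together the 7 genes took between 0.640% (*tma46Δ* replicate 3) and 2.47% (*stm1Δ* replicate 4) of all mRNA counts and, in the same cultures, between 0.477% and 2.31% of all footprint counts.

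Their shared course is given by the mean of the 7 log2 levels, each centred on its own mean over the cultures. In RNA-Seq it was 0.50, -0.30, -0.83 and -0.15 in replicates 1 to 4 of *tma46Δ*, -0.44, 0.50, 0.63 and -0.63 in *eif2aΔ*, -0.16, 0.38, 0.92 and 1.11 in *stm1Δ*, and 0.18, -0.55, -0.77 and -0.38 in *wt*. Cultures of batch 3 were below the mean in all 3 strains that had one, at -0.83 in *tma46Δ*, -0.44 in *eif2aΔ* and -0.77 in *wt*, and both cultures of batch 1 were the highest of their strains. The mean of the footprints followed that of the mRNAs with r = 0.99 over the 16 cultures, each pair of libraries coming from 1 lysate.

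**Figure D3:**
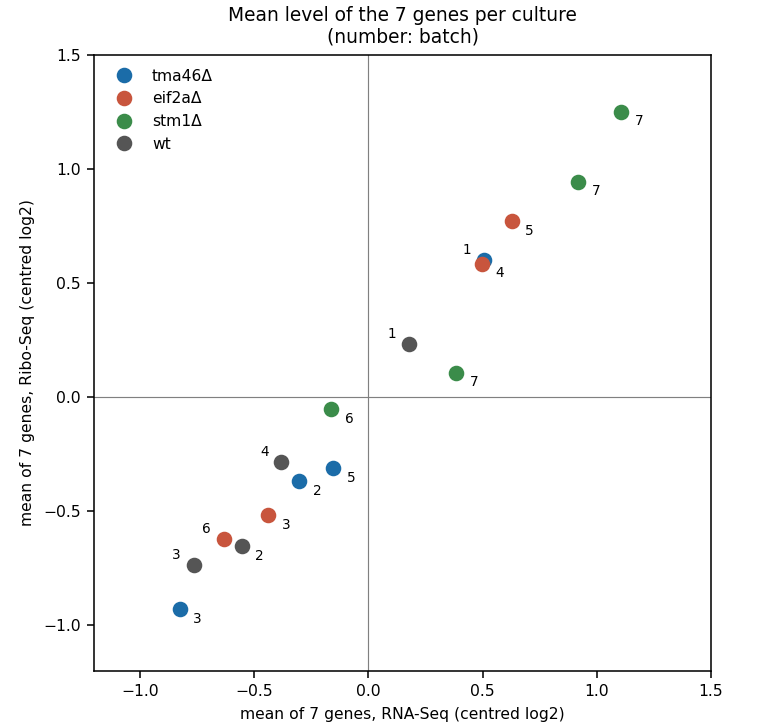
Mean of the 7 centred log2 levels in RNA-Seq (horizontal axis) and in Ribo-Seq (vertical axis), 1 point per culture, coloured by strain and numbered by batch. The points lie along the diagonal, with 2 *stm1Δ* cultures of batch 7 at the top and the cultures of batch 3 towards the bottom.

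Cultures of the same batch can be set side by side directly, on TMM-scaled levels. Where *tma46Δ* met *wt*, all 7 mRNAs were higher in *tma46Δ* in batch 1 (median log2 difference 0.20) and in batch 2 (0.15), and 3 of 7 were in batch 3 (-0.04). For footprints, 7, 7 and 1 of 7 were higher, with medians of 0.23, 0.22 and -0.21. Where *eif2aΔ* met *wt*, 6 of 7 mRNAs were higher in *eif2aΔ* in batch 3 (median 0.41) and 7 of 7 in batch 4 (0.83), and for footprints 6 of 7 (0.14) and 7 of 7 (0.81). The exceptions in batch 3 differed by -0.05 for *SIT1* mRNA and by -0.03 for *ENB1* footprints. Where *eif2aΔ* met *tma46Δ*, all 7 were higher in *eif2aΔ* in mRNA and footprints, in batch 3 with medians of 0.39 and 0.35 and in batch 5 with medians of 0.60 and 1.03. The only meeting of *stm1Δ* with another strain was batch 6, where all 7 were higher in *stm1Δ* replicate 1 than in *eif2aΔ* replicate 4 in both assays, with medians of 0.37 and 0.46. Each of these is 1 culture against 1, with no replicate within a batch.

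Batch 7 showed how far cultures of 1 strain in 1 batch could differ. Its 3 *stm1Δ* cultures spanned 3.80-fold for *FIT1* mRNA and 5.04-fold for *FIT1* footprints, and 1.91-fold and 2.91-fold for *FIT3*. Replicate 2 was the lowest of the 3 for every one of the 7 genes. No other strain was grown in batch 7, so there batch and strain cannot be told apart.

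Strain differences were fitted to all genes at once with edgeR, with batch and strain as terms, over the 16 libraries of an assay. All 7 genes passed the low-count filter, as did 4625 of the 7036 genes, and a gene was called at an adjusted p (Benjamini-Hochberg, edgeR's quasi-likelihood test) under 0.05. The 3 comparisons share the *wt* cultures, and that of *stm1Δ* also runs through the *eif2aΔ* cultures. Beforehand, the deleted genes were checked: *TMA46*, YGR054W and *STM1* had at most 2 mRNA counts and 23 footprint counts in their own deletion strains, against at least 792 and 171 elsewhere. An RNA-Seq library held 4215500 to 6717295 gene counts and a Ribo-Seq library 1457024 to 4122370, where between 43.4% and 50.8% of reads mapped to several places and were not assigned. The lowest count of any of the 7 genes was 291, so the spread between cultures, not counting error, set the precision.

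In *tma46Δ* the 7 genes lay close to *wt*. The fitted log2 fold changes of mRNA were between 0.06 (*FIT2*, SE 0.11) and 0.33 (*FIT1*, SE 0.35), with a median of 0.14 against -0.01 over all genes, and those of footprints between -0.03 (*ENB1*, SE 0.14) and 0.33 (*FIT1*, SE 0.43), with a median of 0.10 against 0.00. None of the 7 was called in either assay by edgeR or by DESeq2, and none had an unadjusted p under 0.05 by edgeR's test. Among all genes, edgeR called 0.0216% for mRNA and 0.0216% for footprints. That was 1 gene in each assay, called lower, so almost no gene was called at all. The adjusted p by edgeR's quasi-likelihood test was 0.999 for all 7 mRNAs and 1 for all 7 footprint values. With the libraries of *tma46Δ* and *wt* alone, 3 of the 7 and 76 of all genes were called in Ribo-Seq.

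In *eif2aΔ* all 7 genes were fitted above *wt* in both assays. This contrast is most likely the one that led to the choice of the 7, so it is given as a description. The fitted log2 fold change of *FIT1* was 1.33 (SE 0.40) for mRNA and 1.48 (SE 0.50) for footprints. Among the transporters, *ARN1* had 0.84 (SE 0.15) and 0.91 (SE 0.20), *ARN2* 0.78 (SE 0.18) and 0.99 (SE 0.21), *ENB1* 0.66 (SE 0.10) and 0.47 (SE 0.16), and *SIT1*, the least changed mRNA of the 7, 0.29 (SE 0.13) and 0.47 (SE 0.15). *FIT3* had 0.77 (SE 0.19) and 0.71 (SE 0.27), and *FIT2* 0.45 (SE 0.13) and 0.41 (SE 0.17). The medians of 0.77 for mRNA and 0.71 for footprints compare with 0.00 for all genes in both assays. *ARN1* and *ENB1* passed the threshold in RNA-Seq, where 0.454% of all genes did, and *ARN1* and *ARN2* in Ribo-Seq, where 1.84% did, and nothing is read from these counts, as the choice of the 7 most likely rests on the same contrast. The values rest on *eif2aΔ* replicates 1 to 3, since replicate 4 shares its batch with *stm1Δ* only.

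**Figure D4:**
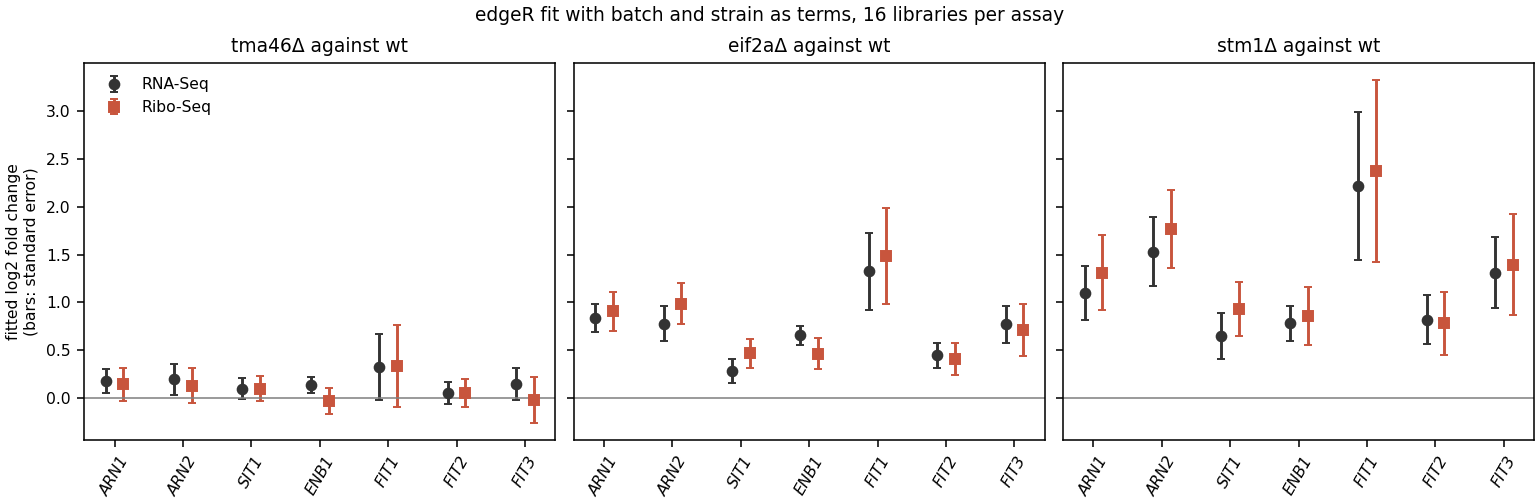
Fitted log2 fold change against *wt* of each gene in *tma46Δ*, *eif2aΔ* and *stm1Δ* (panels), for RNA-Seq (circles) and Ribo-Seq (squares), with bars for the standard error. Values lie near 0 in *tma46Δ* and above 0 for all 7 genes in *eif2aΔ* and *stm1Δ*, with the longest bars for *FIT1*. The values of *stm1Δ* include the difference of *eif2aΔ* from *wt*.

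In *stm1Δ* the fitted values lay between 0.65 and 2.37, all above *wt*, but no gene of the 7 was called. The log2 fold change of *FIT1* was 2.22 (SE 0.77, adjusted p 0.128) for mRNA and 2.37 (SE 0.95, adjusted p 0.244) for footprints, that of *ARN2* 1.53 (SE 0.36, adjusted p 0.0727) and 1.77 (SE 0.41, adjusted p 0.0767), all by edgeR's quasi-likelihood test. *FIT3* had 1.31 (SE 0.37) and 1.39 (SE 0.53), *ARN1* 1.10 (SE 0.28) and 1.31 (SE 0.39), and *FIT2* 0.82 (SE 0.25) and 0.78 (SE 0.33). *ENB1* had 0.78 (SE 0.19) and 0.86 (SE 0.30), and *SIT1*, once more the least changed mRNA, 0.65 (SE 0.24) and 0.93 (SE 0.28). Over the 7 genes the adjusted p of edgeR's test ran from 0.0727 to 0.152 for mRNA and from 0.0767 to 0.265 for footprints, and all 7 had an unadjusted p under 0.05 in both assays, as had 1008 of the 4625 genes for mRNA and 720 for footprints. DESeq2 called 5 of the 7 mRNAs, and 236 of all, and 0 of the 7 for footprints, and 38 of all. Among all genes, edgeR called 0.0649% for mRNA and 0.411% for footprints. The medians of 1.10 and 1.31 compare with 0.01 and 0.01 for all genes. The comparison reaches *wt* only through *stm1Δ* replicate 1 and its batch mate *eif2aΔ* replicate 4, and cannot be made without either. Each fitted value is therefore the fitted difference of *eif2aΔ* from *wt* plus the difference between those cultures. The choice of the 7 most likely rests on the former, so the p-values and calls given here are no independent test of the 7. The other *stm1Δ* cultures are alone in batch 7, whose term takes up their level. Leaving 1 of them out therefore bears on the estimated spread rather than on the fitted difference. Without *stm1Δ* replicate 2, edgeR called 6 of the 7 for mRNA and 7 for footprints, and 577 and 189 of all genes. Without *stm1Δ* replicate 4 it called 1 and 1 of the 7, and 15 and 30 of all genes, and without *eif2aΔ* replicate 1 it called 0 and 3 of the 7, and 5 and 115 of all genes.

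Ribosome occupancy (RO), the Ribo-Seq level relative to the RNA-Seq level, differed among the 7 genes far more than among strains. In *wt* the mean log2 ratio was -1.18 ± 0.07 for *ENB1* (SD, n = 4), -1.07 ± 0.14 for *ARN2*, -0.69 ± 0.30 for *ARN1*, -0.49 ± 0.10 for *FIT3*, -0.12 ± 0.12 for *SIT1*, 0.16 ± 0.10 for *FIT2* and 0.21 ± 0.14 for *FIT1*, where the median gene stood at -0.50. *ENB1* and *ARN2* thus lay at the 17.8th and 21.4th percentile of 4625 genes, and *FIT2* and *FIT1* at the 85.5th and 87.0th. *ENB1* and *ARN2* differed by less than the larger SD of the pair, as did *FIT2* and *FIT1*, while *SIT1* stood clear of the other 3 transporters. The footprints therefore did not follow family: 1 transporter and 2 mannoproteins were above the median of all genes beyond their SD and *FIT3* was at it.

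Against *wt*, the fitted RO of the 7 genes differed by log2 values between -0.18 and 0.03 in *tma46Δ*, between -0.24 and 0.18 in *eif2aΔ* and between -0.18 and 0.26 in *stm1Δ*. In *tma46Δ* and *stm1Δ* none was called and none had an unadjusted p under 0.05 by edgeR, and DESeq2 called none. Among all genes, edgeR called 0% in *tma46Δ*, 0.0865% in *eif2aΔ* and 0.13% in *stm1Δ*. By this fit, a difference between the change in footprints and the change in mRNA was thus not called in *tma46Δ* or *stm1Δ*. This model did not pair the libraries of a culture. Its standard errors ran from 0.14 (*ENB1*) to 0.52 (*FIT1*) on the log2 scale in *tma46Δ*, and from 0.14 to 0.51 for the same genes in *stm1Δ*. In both strains they can therefore include spread that both assays share. Taken culture by culture, the log2 ratio of *FIT1* had an SD of 0.14 in *tma46Δ* and 0.14 in *wt*. With a term for each culture instead, 0 of the 7 were called in *tma46Δ*, with values between -0.18 and 0.04. Over the 16 cultures, footprints of each gene followed its mRNA with r of 0.88 (*ENB1*) to 0.99 (*FIT1*), each pair of libraries sharing a lysate.

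Other iron genes were examined in lists of known pathway members. These lists, like the siderophore genes, were chosen with earlier results of these data known. Their calls in *eif2aΔ* are therefore given as a description, and nothing is read from them. Of the 10 genes of reductive iron uptake, edgeR called *FRE3*, a reductase that acts on siderophore-bound iron, higher in *eif2aΔ* in RNA-Seq (log2 fold change 0.59, SE 0.11), and *FRE3* (1.46, SE 0.23) and *FRE4*, another such reductase (1.04, SE 0.19), in Ribo-Seq. None of the 10 was called lower, and the list medians were 0.40 and 0.42. Of 8 other Aft1 or Aft2 targets, *LSO1*, which encodes a small ribosome-bound protein, was called higher in *eif2aΔ* in RNA-Seq (3.39, SE 0.58). In Ribo-Seq *LSO1* (3.30, SE 0.57), the haem oxygenase gene *HMX1* (0.76, SE 0.16) and the mitochondrial iron importer gene *MRS4* (0.67, SE 0.16) were. The medians of this list were 0.33 and 0.48, where the median over all genes was 0.00 in both assays. Of all genes, edgeR called 0.454% for mRNA and 1.84% for footprints in *eif2aΔ*.

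In *stm1Δ* none of the 10 reductive genes and none of the 8 other targets was called by edgeR in either assay, though 5 of the reductive genes and 5 of the other targets had an unadjusted p under 0.05 for mRNA, and 6 of each list for footprints, with 1008 and 720 of the 4625 genes below that level. Of all genes, edgeR called 0.0649% for mRNA and 0.411% for footprints in *stm1Δ*. The list medians were 0.39 and 0.48 for reductive uptake and 0.52 and 0.83 for the other targets. These fitted values, too, include the difference of *eif2aΔ* from *wt*. In *tma46Δ* no gene of any list was called in either assay, where edgeR called 0.0216% of all genes for mRNA and for footprints. By its test, 1 reductive gene had an unadjusted p under 0.05 in each assay and so did 1 regulator in Ribo-Seq. Of all genes, 75 and 170 were below that level. The medians were 0.06 and 0.02 for reductive uptake and 0.08 and 0.08 for the other targets.

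The regulators and the other metal transporter genes were examined in the same way. Their lists were chosen with the same earlier results known, so their calls in *eif2aΔ* are likewise a description only. Of 8 genes that sense or relay iron (*AFT1*, *AFT2*, *CTH1*, *FRA1*, *BOL2*, *GRX3*, *GRX4* and *YAP5*), edgeR called 1. This was *BOL2*, lower in *eif2aΔ* in Ribo-Seq (-0.47, SE 0.11), where 1.84% of all genes were called. The medians of the regulators in *eif2aΔ* were -0.06 in both assays. *BOL2* encodes a partner of the glutaredoxins that hold Aft1 inactive when iron is sufficient. Among 3 low-affinity or vacuolar metal transporter genes, *SMF1*, a manganese transporter gene, was called lower in *eif2aΔ* in RNA-Seq (-0.47, SE 0.09). There, 0.454% of all genes were called. None of the 5 copper and zinc uptake genes tested was called in any strain by edgeR, with an unadjusted p under 0.05 for 2 mRNAs and 1 set of footprints in *eif2aΔ* and for 1 and 2 in *stm1Δ*, and for none in *tma46Δ*. In *eif2aΔ* 632 and 681 of all genes were below that level.

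The course over cultures was compared list by list. The correlation with the mean of the 7 siderophore genes over 16 cultures had a median of 0.89 for mRNA and 0.82 for footprints over the reductive genes and of 0.90 and 0.91 over the other targets, against -0.003 and -0.08 over the regulators, -0.12 and -0.32 over the copper and zinc genes, and 0.01 and -0.01 over all other genes. Within reductive uptake, *FRE2*, a ferric reductase gene, was closest, at 0.96 and 0.97, and *FRE1* farthest, at 0.59 and -0.25. With batches centred on their means the values of *FRE1* were -0.05 and 0.22, each of the other sign. The 3 low-affinity or vacuolar transporter genes had medians of -0.33 and -0.64. Of these, *FET4*, the low-affinity iron transporter gene, followed the 7 with r of 0.94 and 0.96, whereas *CCC1*, which encodes the transporter that stores iron in the vacuole, ran opposite, at -0.90 and -0.76. Among the regulators *AFT1* stood at 0.55 and 0.41, or 0.78 and 0.02 with batches centred, and *GRX4*, a glutaredoxin gene, at -0.83 in both assays. TGCACCC stood within 500 bases before 9 of 10 reductive genes and 5 of 8 other targets, the latter listed as Aft1 or Aft2 targets to begin with. It stood before 1 of 3 low-affinity or vacuolar transporter genes, 0 of 8 regulators and 0 of 6 copper and zinc genes. As only 2.33% of all protein-coding genes had it there, 0 in lists this short says little. The reductive gene *FRE5* shares the 508 bp before its start codon with *FIT3*, so the same matches count for both genes.

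**Figure D5:**
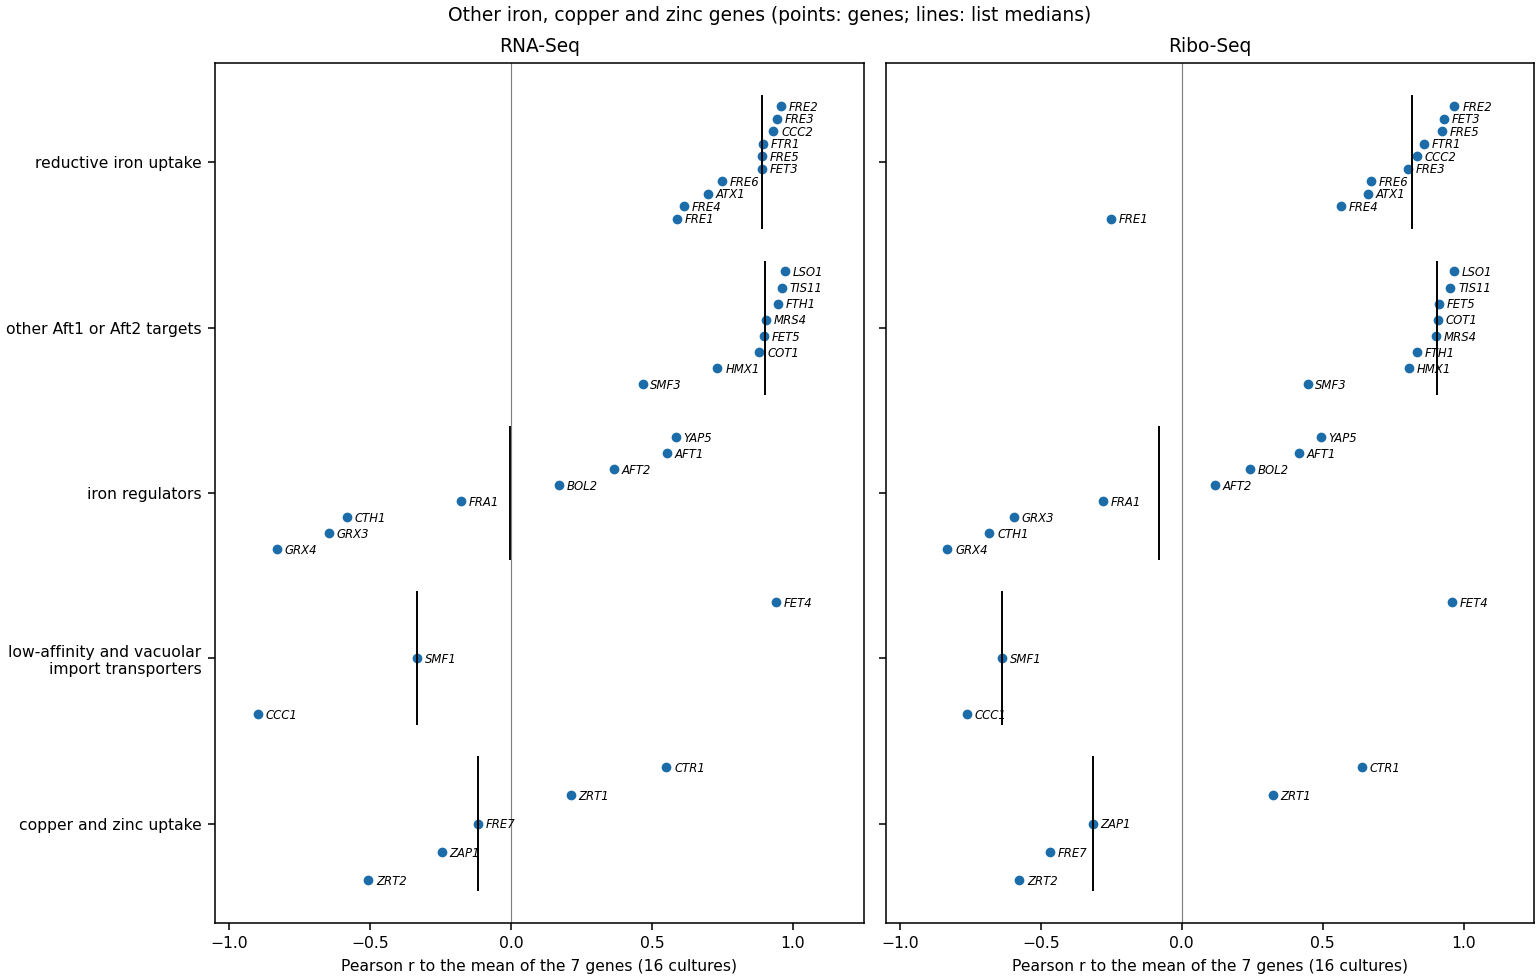
Pearson correlation of each gene of 5 lists with the mean of the 7 siderophore genes over 16 cultures (horizontal axis, no unit), RNA-Seq left and Ribo-Seq right, with points for genes and vertical lines for list medians. Genes of reductive uptake and other Aft1 or Aft2 targets lie mostly near 1, with *SMF3*, *FRE4* and *FRE1* the farthest below in RNA-Seq and *FRE1* below 0 in Ribo-Seq, and regulators scatter about 0.

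Of all genes, 5 per assay whose course was most like that of the 7 are named. In RNA-Seq they were *LSO1* (r = 0.97), *ERG3*, an ergosterol synthesis gene (0.97), *TIS11*, which encodes the mRNA-binding protein also called Cth2 that lowers iron-using transcripts when iron is scarce (0.96), *FRE2* (0.96) and YMR317W (0.95). In Ribo-Seq they were *FRE2* (0.97), *LSO1* (0.96), *TIR1*, a cell wall mannoprotein gene (0.96), *FET4* (0.96) and YDR476C (0.96). *LSO1* spanned the widest range of them, from 3.08 to 176 CPM in RNA-Seq. The sequence of cultures behind these values is 1 set of 16 that all genes share, and many genes followed it, so the ranks order genes by likeness and no more.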

How the data were processed

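The authors trimmed reads with cutadapt (version 2.10), removed duplicate footprints and ribosomal RNA, mapped to the R64-1-1 assembly and counted reads per gene with STAR (version 2.7.9a). The deposited table holds raw counts on the sense strand, not normalized, for 7036 genes in 32 libraries, and 0 of its sample columns lacked a label. Per-library deposited counts without regard to strand served as an alternative.

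The 7 members, the gene lists and the named-gene rule (all members, the 5 genes per assay most like their mean, listed genes that were called or extreme, and the deleted genes) were chosen with earlier results of these data known. Genes that reached 10 CPM in 4 or more libraries of each assay were fitted with edgeR (version 4.0.16, R version 4.3.3): TMM scaling, glmQLFit and glmQLFTest, batch and strain as terms, Benjamini-Hochberg adjustment over 4625 genes, threshold 0.05. RO was tested as the strain by assay interaction over 32 libraries with batch as a term, and with a term for each culture as an alternative. The study corrected batches with ComBat-seq instead, which here was an alternative (sva version 3.50.0), as was DESeq2 (version 1.42.0). The scripts were tested on simulated data. The batch-by-assay term, the levels without *stm1Δ* replicates 3 and 4, and the 500-base window were added after the data had been seen. Correlations used log2(CPM + 1). Motifs and positions came from the RefSeq genome and annotation.

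Replicates 1 to 3 of *tma46Δ* and *wt* share batches by their labels. The deviations of these pairs correlated at 0.53 to 0.67 for mRNA and 0.32 to 0.48 for footprints, and batch as a term takes up that pairing. Replicate numbers of the other strains stand for different batches.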

Additional observations from a re-analysis of the deposited data

Results flagged for a closer look

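Of 84 groups of 4 values examined, 6 held a culture that stood far from the other 3, where chance gives about 1 in 20. That is not far from the chance rate, and the groups are not independent, as the 7 genes varied together over the same cultures. Levels accounted for 3 of the 6, each the highest value of its group. *ARN2* mRNA was at 1226 CPM in *wt* replicate 1, against 582 to 641 in the other *wt* cultures. *SIT1* footprints were at 883 CPM in the same culture, against 597 to 634. *FIT1* footprints were at 1210.2 CPM in *tma46Δ* replicate 1, against 129 to 300.1. Both cultures were of batch 1, which held no other strain.

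The other 3 were log2 ratios of footprints to mRNA. *ARN1* stood at -1.10 in *stm1Δ* replicate 2, against -0.63 to -0.61 in the other *stm1Δ* cultures. *FIT3* stood at -0.77 in *tma46Δ* replicate 3, against -0.61 to -0.58, and at -0.35 in *wt* replicate 3, against -0.56 to -0.53, 2 cultures of batch 3 that deviated in opposite directions.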

How the results depend on the processing

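For *tma46Δ*, 0 of the 7 genes were called in RNA-Seq and in RO under every alternative run, and in Ribo-Seq all but the fit of *tma46Δ* and *wt* libraries alone (3 genes) gave 0. The sign of 3 footprint values, all near 0, was not settled: *ENB1* became 0.021 with *tma46Δ* and *wt* alone and -0.11 to 0.11 with 1 culture left out, *FIT2* was -0.016 to 0.18 with 1 culture left out, and *FIT3* became 0.10 without a batch term, 0.10 with the replicate block, 0.025 with ComBat-seq, 0.0566 with *tma46Δ* and *wt* alone and -0.16 to 0.18 with 1 culture left out. For *eif2aΔ*, the median log2 fold change of the 7 stayed positive, at 0.44 to 0.89 for mRNA and 0.50 to 0.95 for footprints. The number of the 7 past the threshold, from which nothing is read, was 0 and 0 without a batch term and with the replicate block, 3 and 0 with DESeq2, 6 and 4 with ComBat-seq, 4 and 7 with *eif2aΔ* and *wt* alone, and 0 to 6 and 0 to 7 with 1 culture left out. For *stm1Δ* in RNA-Seq, 3 were called without a batch term, 1 with the replicate block, 7 with ComBat-seq, 2 without a filter and 5 with DESeq2, and 0 to 6 with 1 culture left out. In Ribo-Seq 7 were called with ComBat-seq and 0 to 7 with 1 culture left out, and neither assay gave a value without *stm1Δ* replicate 1 or *eif2aΔ* replicate 4. A fit of *stm1Δ* and *wt* alone was not possible, as they share no batch. The replicate block sets numbers of different batches side by side in all but *tma46Δ*, and the cause of these changes was not tested.

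The counts over all genes, 1, 1 and 0 called for mRNA, footprints and RO in *tma46Δ*, 21, 85 and 4 in *eif2aΔ*, and 3, 19 and 6 in *stm1Δ*, moved more. They ran from 1 to 7 for mRNA, 1 to 76 for footprints and 0 to 1 for RO for *tma46Δ*, from 4 to 959, 7 to 821 and 2 to 62 for *eif2aΔ*, and from 1 to 3151, 1 to 2561 and 0 to 2137 for *stm1Δ*, where the highest count for *eif2aΔ* and *stm1Δ* came from ComBat-seq. The median correlation between the 7 genes was 0.89 to 0.90 for mRNA and 0.94 to 0.95 for footprints under all settings run.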

Other observations

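The genes whose course ran most directly against that of the 7 siderophore genes were named after their values were seen, and no enrichment was tested. In RNA-Seq the 5 lowest correlations over the 16 cultures belonged to *RIP1*, which encodes the iron-sulfur protein of the cytochrome bc1 complex (r = -0.98), *CYT1*, cytochrome c1 (-0.96), *CYC1*, cytochrome c (-0.95), *PMI40*, a mannose phosphate isomerase (-0.95), and *COR1*, a core subunit of the same complex (-0.95). In Ribo-Seq they were *COR1* (-0.96), *LEU1*, an iron-sulfur enzyme of leucine synthesis (-0.95), *CYC1* (-0.94), *MYG1* (-0.94) and *QCR7*, another subunit of the complex (-0.93). *CYC1* mRNA spanned 4.10 to 35.2 CPM and *LEU1* footprints 46.0 to 487 CPM over the cultures. Centred on batch means, the correlations were -0.94 for *RIP1* and -0.92 for *CYC1* in RNA-Seq. All genes share the same cultures, and these values carry no test.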
